A study of Homo sapiens with 4 samples.

Results

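The miRNAs described here are those of human clusters known for pluripotent cells, placenta and testis: 117 of the 2656 mature miRNA entries of the count table. The rule that chose them uses the number in their name and no measured value, but it was set with earlier results of these data known. The first group, of 20 entries, holds miR-302, miR-367 and miR-371 to miR-373, called here the pluripotency group. The second, of 67 entries, is C19MC, the large placental cluster of chromosome 19, chosen as miR-498, miR-512, miR-515 to miR-527, miR-1283 and miR-1323. The third, of 30 entries, is the testis group, with miR-506 to miR-510, miR-513 and miR-514, called here the miR-506 cluster, and with miR-888, miR-890, miR-891 and miR-892, called the miR-888 cluster.

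Small RNA was sequenced from HEK293T, a human embryonic kidney line that carries the SV40 large T antigen. Every line held a landing pad, an integrated site built to accept a transgene. In the PGK group (2 libraries) the pad held the promoter of the phosphoglycerate kinase gene, and in the CAG group (2 libraries) it held CAG, a strong synthetic promoter joined from viral enhancer and chicken actin parts. The design asked which miRNAs differed between lines with the one promoter and lines with the other. The lines were monoclonal, so promoter and clone cannot be told apart, and nothing says that replicates were separate cultures, so p-values measure only the spread between these samples.

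As background, miRNAs act mainly through their seed, bases 2 to 8 from the 5′ end, which pairs with target mRNAs. The miR-302 cluster, which includes miR-367, and the cluster of miR-371 to miR-373 are the main miRNAs of human embryonic stem cells, where they promote rapid cycling. C19MC is an imprinted, primate-specific cluster expressed from the paternal allele in trophoblast. The miR-506 and miR-888 clusters lie on the X chromosome and are expressed mainly in testis and epididymis. In bulk samples such as these, fewer cells of a type and less RNA per cell cannot be told apart.

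Library totals ran from 2845945 counts (CAG replicate 2) to 13780279 counts (CAG replicate 1), so a miRNA listed at 0 could be as high as 0.972 CPM in the shallower of these and 0.233 CPM in the deeper (3 counts). CPM values are counts scaled to a common library total with TMM factors, and such limits and the exact intervals below cover counting error only, because reads amplified by PCR without molecular identifiers are not independent molecules. Of a list of miRNAs known to be abundant in HEK293T, 7 of 7 had reads, as did 61.1% of all entries, and together they held 402295 to 474323 CPM. The list was chosen with earlier results of these data known, so it is no independent check of the cell type. Markers of other cell types were near 0: those of blood summed to 0.932 to 2.27 CPM, with miR-223-3p at 0, the liver marker miR-122-5p to 0 to 2.65 CPM, and those of muscle to 0 to 2.63 CPM. One muscle marker moved with the groups: miR-133a-3p had 2.50 and 1.95 CPM in PGK and 0.311 and 0 CPM in CAG libraries (edgeR adjusted p = 0.0171), and its part in the results below was not tested.

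The members that the results turn on have these mature sequences in RefSeq (GRCh38.p14), written 5′ to 3′ with the seed in capitals. They are shown because many pluripotency and C19MC members share a seed core that no testis member with a sequence has.
miR-302a-5p: aCUUAAACguggauguacuugcu
miR-302b-3p: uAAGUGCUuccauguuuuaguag
miR-372-3p: aAAGUGCUgcgacauuugagcgu
miR-520c-3p: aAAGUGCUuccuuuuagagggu
miR-512-3p: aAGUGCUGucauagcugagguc
miR-517a-3p and miR-517b-3p: aUCGUGCAucccuuuagagugu
miR-526b-5p: cUCUUGAGggaagcacuuucugu
miR-516b-5p: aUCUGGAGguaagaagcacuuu
miR-514a-3p: aUUGACACuucugugaguaga
miR-509-3-5p: uACUGCAGacguggcaaucaug
miR-891a-5p: uGCAACGAaccugagccacuga
miR-892a: cACUGUGUccuuucugcguag

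RefSeq gave a sequence for 111 of the 117 members and for 2367 of all 2656 entries. The 6-base core AAGUGC, read on the mature strand within the first 8 bases, was in 9 of 20 pluripotency, 13 of 64 C19MC and 0 of 27 testis members with a sequence, against 28 of 2367 entries in all (1.18%). The 111 members had 69 different seeds. The largest set, of 12 members, had the seed AAGUGCU and joined miR-302, miR-372, miR-373 and miR-520 entries across the pluripotency group and C19MC.

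Nearly all members were absent or close to it. Only 35 of the 117 had a read in any library (29.9%), against 1589 of the 2539 other entries (62.6%). All members together had 666 reads, 0.00209% of all reads, and 610 of these belonged to the testis group. The testis group had reads for 17 of 30 entries, the pluripotency group for 8 of 20, and C19MC for 10 of 67. At 10 reads or more over the 4 libraries, 8 testis entries, 1 pluripotency entry and 0 C19MC entries remained, against 1083 of the other entries. Among entries with reads, the median total was 7 reads in the testis group, 4 in the pluripotency group and 1.5 in C19MC, and it was 31 in the other entries.

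Depth moved these counts, so they were also computed as the number expected after thinning each library to the total of the shallowest. The testis group then had 7.98, 8.61, 9.48 and 9 entries with a read in PGK replicates 1 and 2 and CAG replicates 1 and 2, which is nearly level. The pluripotency group had 0.718 and 1.25 in the PGK and 3.51 and 5 in the CAG libraries. C19MC had 0 in both PGK libraries, and 2.72 and 1 in the CAG libraries. At equal depth the CAG libraries thus held more entries of the first 2 groups than either PGK library, on very few reads.

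**Figure D1:**
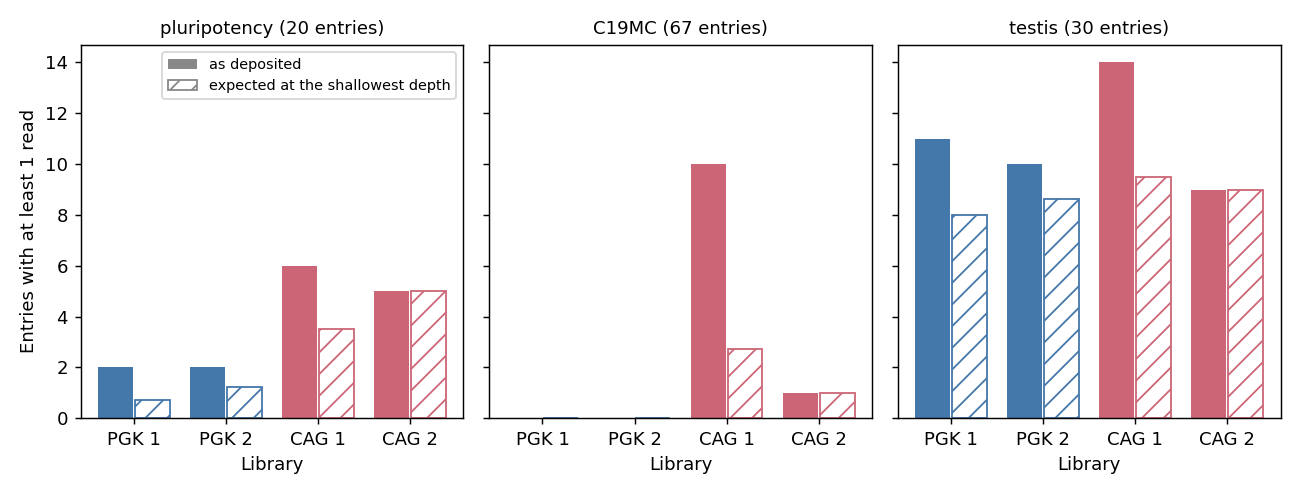
Entries with at least 1 read (vertical axis) in each library (horizontal axis) for the 3 groups of members. Filled bars are counts as deposited and hatched bars the number expected at the depth of the shallowest library, CAG replicate 2. The testis bars are nearly level after thinning, and C19MC has no bar in PGK libraries.

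Of the 117 members, 4 passed the low-count filter of the test between CAG and PGK, all in the testis group, and 0 of the 4 passed an adjusted p of 0.05 in edgeR's quasi-likelihood test. Over all 773 miRNAs tested, 14.2% were called, 8.15% higher and 6.08% lower in CAG cells. None of the 4 had an unadjusted p under 0.05, and limma-voom called 0 as well. DESeq2 also called 0, but it gave no adjusted p for miR-891a-5p and miR-892a (DESeq2 unadjusted p = 0.802 and 0.304). The median log2 fold change of the 4 was −0.25, against −0.0042 over all tested miRNAs. The 2 with the fewest reads, 41 and 33, had standard errors of 0.57 and 0.64 on the log2 scale.

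miR-514a-3p was the most abundant member, with 298 of the 610 testis reads. This miRNA comes from 3 hairpins with the same mature sequence (X, 147279266 to 147279286, 147281957 to 147281977 and 147284655 to 147284675, minus strand), and the counts do not separate them. The PGK libraries had 82 and 64 reads of it and the CAG libraries 124 and 28, which is 10.3, 8.92, 9.63 and 9.07 CPM. The groups overlapped and the log2 fold change was −0.02 (SE 0.28; edgeR adjusted p = 0.964). Its rank among all entries by total reads was 440, and the other arm, miR-514a-5p, had 0 reads.

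miR-509-3-5p (X, 147259696 to 147259717, minus strand) followed with 142 reads. Its hairpin lies in an intron of the lincRNA AL589669.1, on the opposite strand, in GENCODE release 29. The 4 libraries held 4.003 and 4.46 CPM in PGK and 4.58 and 6.16 CPM in CAG cells. The CAG values were both above the PGK values, as groups that do not overlap were in 57.2% of all tested miRNAs, and the log2 fold change was 0.25 (SE 0.34; edgeR adjusted p = 0.679). The entry miR-509-5p, from 2 neighbouring hairpins with a near-identical sequence and the same seed ACUGCAG, had 12 reads, and the split of reads between the entries is uncertain. In the deposited table of seed families, ACUGCAG had 154 reads, the sum of both entries, and a log2 fold change of 0.18 (SE 0.32; edgeR adjusted p = 0.759).

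The tested members of the miR-888 cluster, miR-892a and miR-891a-5p, had log2 fold changes below 0 but were not called. miR-892a (X, 145996679 to 145996699, minus strand) had 11 and 16 reads in PGK and 11 and 3 in CAG libraries. In CPM these were 1.38 and 2.23 against 0.854 and 0.972, and the groups did not overlap, as in 57.2% of all tested miRNAs. The log2 fold change of miR-892a was −1.01 (SE 0.57; edgeR adjusted p = 0.280), and the pooled count ratio was 0.476 (95% exact interval 0.231 to 0.940). Without PGK replicate 2 that interval ran from 0.256 to 1.48, and without CAG replicate 1 from 0.116 to 1.94. Without PGK replicate 1 it ran from 0.174 to 0.844, and without CAG replicate 2 from 0.202 to 0.940. miR-891a-5p (X, 146027841 to 146027862, minus strand) had 1.00 and 1.53 CPM in PGK and 0.699 and 1.62 CPM in CAG libraries, which overlapped, and a log2 fold change of −0.48 (SE 0.64; edgeR adjusted p = 0.678), which turned to 0.37 without CAG replicate 1. Neither hairpin overlaps another gene in GENCODE release 29.

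The remaining testis entries were too low to test. miR-508-3p had 27 reads, miR-506-3p had 21 and miR-888-5p had 11, each with reads in all 4 libraries, and the other 9 untested entries with reads outside miR-509-5p had at most 7 each. miR-509-3p, made from 3 hairpins, had 2 reads in each PGK library and 0 in the CAG libraries, while miR-513a-5p had 0 in the PGK libraries and 3 and 1 in CAG replicates 1 and 2. Most reads of a hairpin came from 1 arm: miR-508 had 27 reads of its 3p and 1 of its 5p arm, and miR-506 had 21 and 3. Of 11 testis markers, miR-507 and miR-890 were at 0. The miR-506 cluster as a whole had 129 and 117 reads in PGK and 216 and 54 in CAG libraries, or 16.1 and 16.3 against 16.8 and 17.5 CPM. Its pooled ratio of CAG to PGK was 1.01 (95% exact interval 0.844 to 1.20). The miR-888 cluster had 2.63 and 4.18 CPM in PGK and 2.48 and 3.56 CPM in CAG libraries, a ratio of 0.774 (0.503 to 1.18). In the whole testis group the levels summed to 19.6 ± 1.22 CPM (PGK) and 20.2 ± 1.28 CPM (CAG; mean ± SD, n = 2), a difference below the SD of either group, and without miR-514a-3p it was 10.04 and 10.8 CPM.

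**Figure D2:**
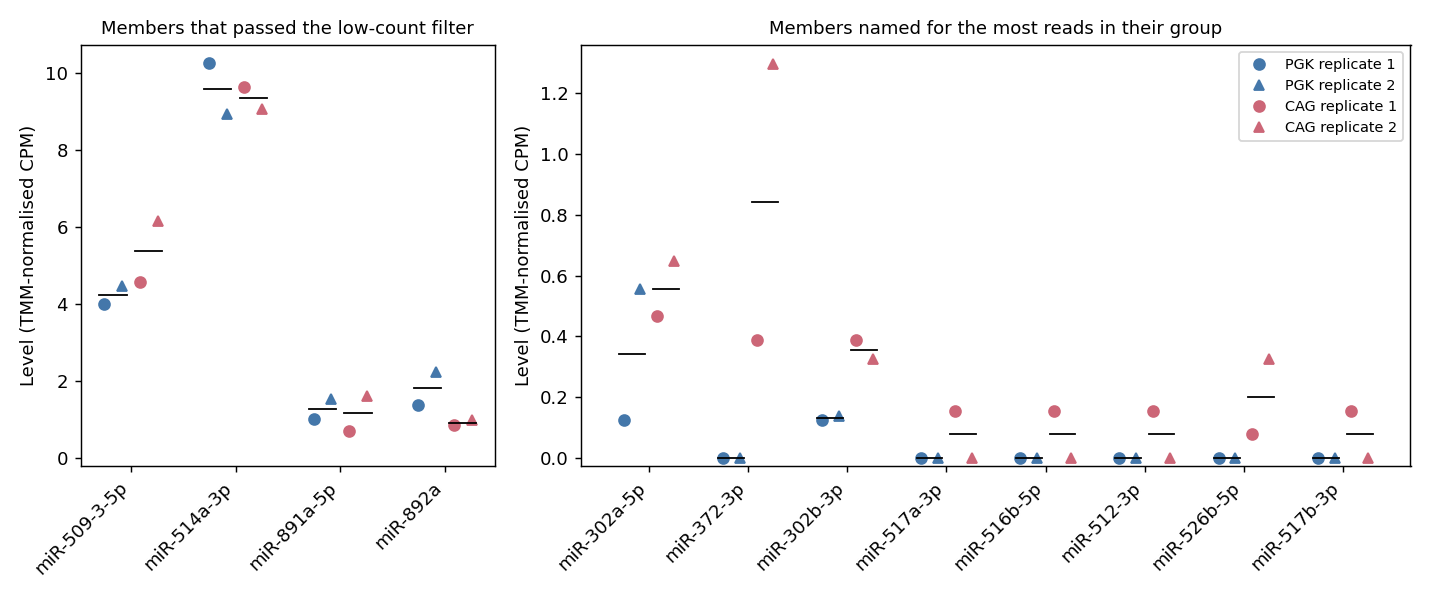
Level in TMM-normalised CPM (vertical axis) of the 12 members described by name, with 1 point per library and the group mean as a black line. The left panel holds the 4 tested members and the right panel, on its own scale, the members with the most reads in their group. miR-514a-3p lies near 9 CPM in both groups, and miR-372-3p is at 0 in both PGK libraries.

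**Figure D3:**
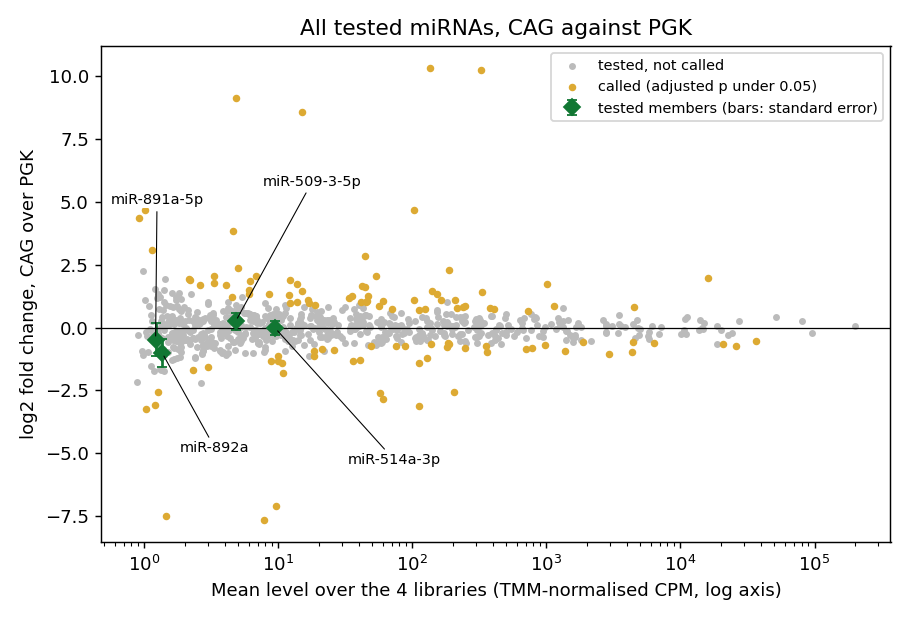
log2 fold change of CAG over PGK (vertical axis) against the mean level over the 4 libraries (horizontal log axis) for the 773 tested miRNAs. Diamonds are the 4 tested members with their standard error, and coloured points are called miRNAs. The members lie at the low end of the levels and among the miRNAs that were not called.

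The germline miRNAs miR-105 and miR-767, also on the X chromosome, stood far apart from these clusters. Both lie in an intron of GABRA3, so their entries come from the same locus. Of these, 4 of 4 were called higher in CAG cells (edgeR), against 8.15% of all 773 miRNAs tested. Together they held 0.418 to 1.13 CPM in PGK and 873 to 1049 CPM in CAG libraries. The testis members had no such difference: their summed counts gave a ratio of 0.967 (95% exact interval 0.823 to 1.14).

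The pluripotency group had 41 reads in all, 7 in PGK and 34 in CAG libraries. Its summed level was 0.2502 and 0.697 CPM in PGK and 1.94 and 2.92 CPM in CAG libraries. The groups thus did not overlap, as was so for 57.2% of all tested miRNAs. Those are single entries that passed the low-count filter, and no such share was computed for sums of low entries. The pooled ratio was 4.46 (95% exact interval 1.95 to 11.9), and it ran from 2.999 without PGK replicate 1 to 8.11 without PGK replicate 2. The cluster of miR-302 and miR-367 (4, 112647877 to 112648547, minus strand) had 2 and 5 reads in PGK and 14 and 3 in CAG libraries. That is 0.2502 and 0.697 against 1.09 and 0.972 CPM, and the pooled ratio was 2.23 (95% exact interval 0.878 to 6.36), or 1.499 and 4.05 without PGK replicates 1 and 2. In GENCODE release 29 the 5 hairpins of the cluster lie in introns of LARP7, on the opposite strand, and within the antisense gene AC106864.1 on their own strand, where MIR302B overlaps an exon and the other 4 lie in introns. Of the 12 entries, 3 had reads: miR-302a-5p with 13, miR-302b-3p with 8 and miR-302c-3p with 3.

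miR-302a-5p had 1 and 4 reads in the PGK and 6 and 2 in the CAG libraries, which is 0.125, 0.558, 0.466 and 0.648 CPM, so the groups overlapped. The other arm, miR-302a-3p, is the main product of this hairpin in stem cells and had 0 reads. miR-302b-3p had 1 read in each PGK library, 5 in CAG replicate 1 and 1 in CAG replicate 2 (0.125, 0.139, 0.388 and 0.324 CPM). miR-302d-3p and both arms of miR-367 were at 0 in all libraries, as were miR-302e and miR-302f, whose genes lie elsewhere. Of 9 markers of pluripotent cells 4 were at 0. The 5 with reads were miR-302b-3p, miR-302c-3p, miR-371a-3p, miR-372-3p and miR-373-3p. All 9 summed to 0.125 and 0.139 CPM in PGK and 1.09 and 1.94 CPM in CAG libraries.

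miR-371 to miR-373 (19, within 53787678 to 53788770) had 17 reads in 5 of 8 entries, all from CAG libraries. In GENCODE release 29 MIR371A and MIR372 overlap an exon of the lincRNA AC008753.3 on the opposite strand, MIR371B overlaps it on the same strand, and MIR373 overlaps no other gene. miR-372-3p had 5 reads in CAG replicate 1 and 4 in CAG replicate 2 and 0 in both PGK libraries (0.388 and 1.30 CPM in CAG). miR-372 and miR-373 are known to blunt the p53 pathway in germ cell tumours. miR-373-5p had 5 reads and miR-373-3p 1 read, all in CAG replicate 1, and miR-371a-3p and miR-371b-5p had 1 read each in CAG replicate 2. Together the cluster had 0.854 and 1.94 CPM in CAG and 0 in both PGK libraries, where 3 counts are 0.375 and 0.418 CPM. No test between the groups was run on this sum. With 0 PGK reads no ratio can be given, but its exact interval started at 3.79. That lower end was 1.82 and 1.97 without PGK replicates 1 and 2, and 6.31 and 2.78 without CAG replicates 1 and 2.

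C19MC lies beside miR-371 on the same chromosome (19, 53666692 to 53762418, plus strand, 44 hairpins in RefSeq), and it had 15 reads in 10 entries. As for miR-371 to miR-373, all reads were from CAG libraries, 14 from CAG replicate 1 and 1 from CAG replicate 2. The most any entry had was 2 reads, a tie between miR-512-3p, miR-516b-5p, miR-517a-3p, miR-517b-3p and miR-526b-5p. miR-526b-5p was the sole C19MC entry with a read in both CAG libraries. Of 12 trophoblast markers 8 were at 0, among them miR-515-5p, miR-517c-3p, miR-518b, miR-519d-3p, miR-525-5p and miR-1323. By entries, C19MC had 1.09 and 0.324 CPM in CAG and 0 in both PGK libraries, and no test between the groups was run on this sum. The exact interval of its ratio to PGK started at 3.29. This lower end was 1.58 and 1.71 without PGK replicates 1 and 2 and 3.67 without CAG replicate 2. Without CAG replicate 1 the cluster had 1 read and the interval started at 0.137, so a difference cannot be told from none.

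Reads in CAG libraries alone are common among rare entries, which sets the scale for these counts. Of all 1624 entries with reads, 11.5% had them in CAG libraries only and 8.99% in PGK libraries only. The chromosome 19 members had 15 of 15 entries of the first kind. Outside chromosome 19, 6 of 20 members with reads were in CAG libraries only, 3 in PGK libraries only and 11 in both. Among all entries with a total of 1 or 2 reads, 49.8% were in CAG libraries only, against 16 of the 18 members with such totals. At totals of 3 to 9 reads it was 20.9% of all entries and 5 of 8 members. These entries share sequence, so they are not independent: miR-517a-3p and miR-517b-3p cannot be told apart by sequence and both list 2 reads.

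**Figure D4:**
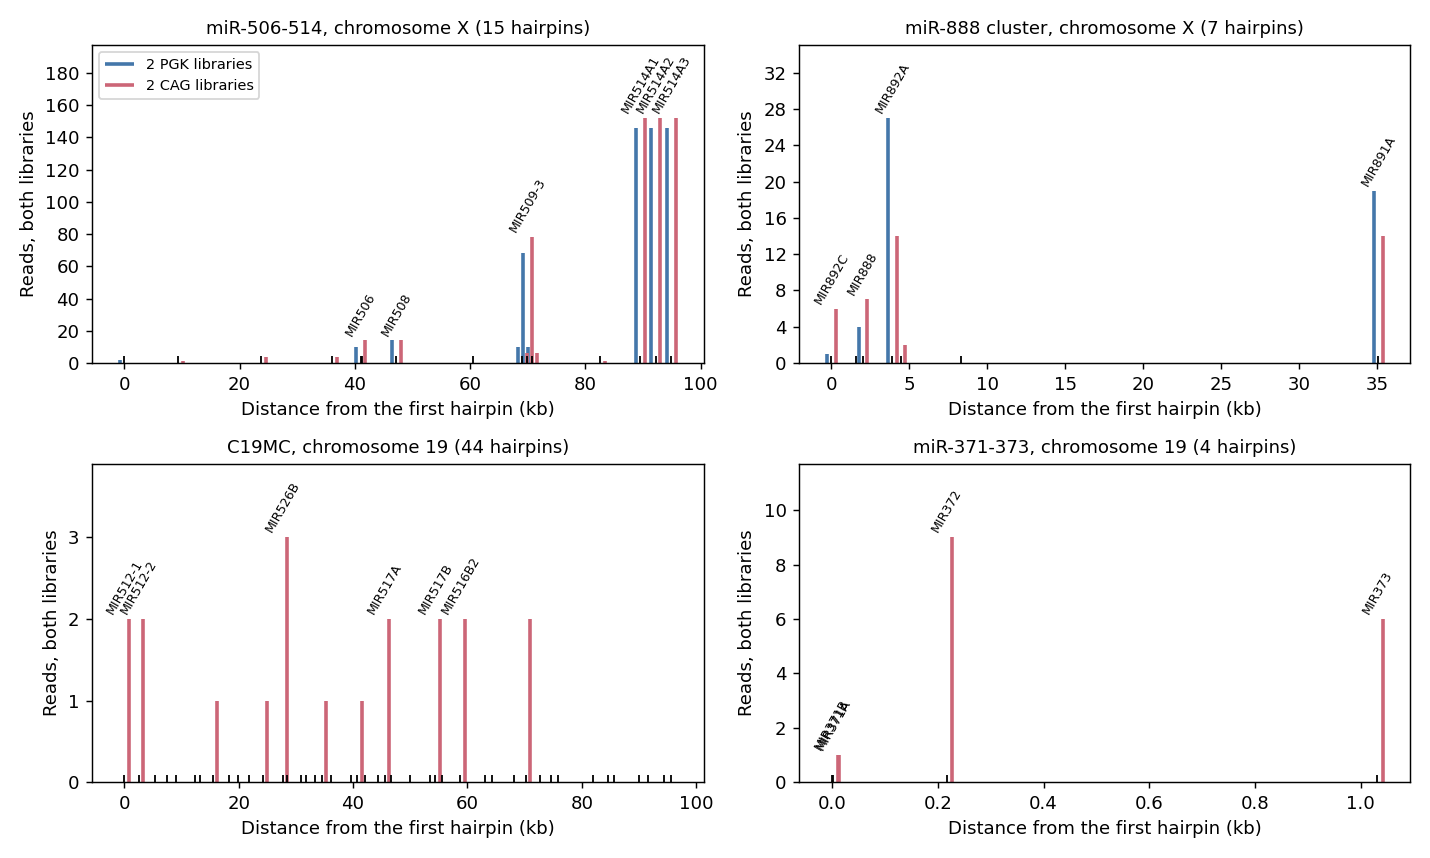
Reads (vertical axis, both libraries of a group added) by position along 4 clusters, in kb from the first hairpin in chromosome order (horizontal axis); black ticks are hairpins. A mature miRNA made from several hairpins is drawn at each of them, as for the 3 copies of MIR514A. PGK and CAG reads are of like number along the miR-506 cluster, and in both chromosome 19 panels all lines are CAG reads.

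The table of 2094 seed families, made from the same 4 libraries, differed from the entries by single reads. For UCGUGCA, the seed of miR-517a-3p, miR-517b-3p and miR-517c-3p, the family had 1 read in PGK replicate 1, 3 in CAG replicate 1 and 1 in CAG replicate 2, whereas the entries summed to 4 in CAG replicate 1 and 0 elsewhere. UCUAGAG, shared by 10 C19MC members, had 1 read in CAG replicate 2 although all 10 entries were at 0. So 1 PGK read carried a C19MC seed, and the 0 of the entries is not exact. Over the 33 seeds that, among miRNAs with a RefSeq sequence, only chromosome 19 members have, the families had 13 reads in CAG and 1 in PGK libraries, a ratio of 11.9 (95% exact interval 1.79 to 507).

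The family with the seed AAGUGCU, which joins miR-302, miR-372, miR-373 and miR-520 entries, had 1 read in each PGK library, 16 in CAG replicate 1 and 5 in CAG replicate 2. In CPM these were 0.125 and 0.139 against 1.24 and 1.62, so both CAG libraries were above both PGK libraries. Groups that do not overlap, in either direction, were found for 57.2% of all tested miRNAs, which unlike this family passed the low-count filter. The pooled ratio of the family was 9.64 (95% exact interval 2.36 to 84.8). It had too few reads for the low-count filter. Without the filter it was called higher in CAG cells (log2 fold change 3.16, SE 0.76; edgeR adjusted p = 0.0411 over 1332 families, of which 3.9% were called in either direction and 2.18% higher in CAG cells). The call was kept with RLE scaling (adjusted p = 0.0409) and with library sizes alone (adjusted p = 0.0448). The call was lost with limma-voom (limma-voom adjusted p = 0.123) and with the replicate block (edgeR adjusted p = 0.130). These fits called 2.48% and 0.901% of all 1332 families in either direction. The call was also lost when any 1 of the 4 libraries was left out, which leaves 1 library in a group. Fewer families of all kinds were then called as well. DESeq2 gave no adjusted p (DESeq2 unadjusted p = 0.0440). Over these 8 alternatives other than DESeq2 the log2 fold change ran from 2.79 to 3.31. This family was singled out after its values were seen. No single member was called without the filter: of 35 entries, 1 had an unadjusted p under 0.05 (miR-372-3p, edgeR adjusted p = 0.182), and 5.73% of all 1624 entries were called.

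Several seeds of these clusters were abundant in the cells through other miRNAs. AAAGUGC, the seed of miR-519d-3p and miR-526b-3p, is also that of the miR-17 family, the growth-promoting miRNAs of the miR-17 cluster and its copies, and is AAGUGCU shifted by 1 base. miR-17-5p shows the shift beside the miR-372-3p and miR-520c-3p sequences.
miR-17-5p: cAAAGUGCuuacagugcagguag
The AAAGUGC family held 42958 ± 4078 CPM (PGK) and 40141 ± 4532 CPM (CAG; mean ± SD, n = 2), and 1 of its 1321490 reads was from a member. AUUGCAC, the seed of miR-367-3p, held 129888 ± 11424 and 110840 ± 228 CPM (n = 2) with 0 reads from miR-367-3p, most of them from miR-92a-3p. Neither family was called, with log2 fold changes of −0.13 (SE 0.16) and −0.26 (SE 0.14), and 0 of 6 miR-17 family miRNAs and 0 of 4 tested miRNAs with the miR-367 seed were called (edgeR; lowest adjusted p = 0.233 and 0.209).

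Of the 69 seeds of members, 10 could be tested as families and 1 was called (edgeR), against 10.4% of all 642 families tested (5.76% higher and 4.67% lower in CAG cells). That family was ACUGUUU, which had 116 ± 0.120 CPM in the PGK and 24.9 ± 4.22 CPM in the CAG group (n = 2) and a log2 fold change of −2.28 (edgeR adjusted p = 0.000219). Its member miR-892c-3p gave 7 of its 2120 reads (0.330%), while 1838 were from miR-452-5p of the GABRE locus. The 3 tested seeds that no other miRNA with a RefSeq sequence shares (UUGACAC of miR-514a-3p, ACUGUGU of miR-892a and GCAACGA of miR-891a-5p) were not called, with log2 fold changes of −0.05, −1.03 and −0.50.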

How the data were processed

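Counts were measured in 4 HEK293T libraries, 2 PGK and 2 CAG, grouped by their titles. Per the labels' protocols, total RNA was isolated with Trizol and a NEBNext Small RNA kit was used for the libraries. The authors deposited whole-number counts per mature miRNA and per seed family; the aligner, counting rule, annotation and build (not given in the sources used here) could change which entry takes a read that matches several. Each library is 1 replicate: the chi-square statistic per degree of freedom was 41.7 between PGK and 79.4 between CAG replicates, so none is a copy.

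edgeR 4.0.16 (quasi-likelihood, robust; R 4.3.3) was fitted to whole tables with TMM factors and the default filter by group (minimum count 10, minimum total 15). P-values are two-sided and Benjamini-Hochberg adjusted over all features tested (threshold 0.05). DESeq2 1.42.0 and limma 3.58.1 were alternatives. Ratios of pooled counts use library totals and exact binomial 95% intervals. Thinning was computed exactly, with no random draw. The scripts were tested on simulated data. Seeds and mature positions come from RefSeq (GRCh38.p14), gene overlaps from GENCODE release 29 (GRCh38). The members and lists were chosen with earlier results of these data known. Named are all tested members and the 3 members of each group with the most reads, ties included; other names were chosen after their values were seen.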

Additional observations from a re-analysis of the deposited data

How the results depend on the processing

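No member was called under any of the 11 alternatives (RLE or library size scaling, no filter, 1 CPM in 2 libraries, DESeq2, limma-voom, replicate block, each library left out), and the member seed families kept 1 call, lower in CAG, in all 9 run on families (not limma-voom or 1 CPM); without the filter 1 more, AAGUGCU, was called higher. Only 4 or 5 members were tested in each fit except that without the filter (35), and the main fit called 14.2% of all miRNAs tested. With so few members tested, 0 calls say little about how stable the result is. DESeq2 gave no adjusted p for miR-891a-5p and miR-892a, so it could not call them. Nothing says whether the numbers 1 and 2 pair the libraries. The differences between replicates 1 and 2 had a correlation of −0.0153 between the PGK and CAG groups, which cannot decide this. The replicate block left 0 members called and 1 family. miR-514a-3p reversed sign without PGK replicate 1 (0.066) and without CAG replicate 2 (0.0069), and miR-891a-5p without CAG replicate 1 (0.37), all uncalled; with 1 library left out they ran from −0.13 to 0.066 and from −0.83 to 0.37. Entries with reads fell to 1, 0 and 8 (pluripotency, C19MC, testis) at 10 reads and to 2, 0 and 7 for a read in every library. Leaving out 1 library gave 5 to 8 entries for pluripotency and 1 to 10 for C19MC, lowest without CAG replicate 1. Without its most abundant member the summed level was 0.132 CPM for pluripotency in PGK, and 10.04 and 10.8 CPM for testis in PGK and CAG. The log2 ratio of the pluripotency sum, 2.36, was 3.82 without miR-302a-5p and 1.80 to 3.28 with 1 library left out. With 15 and 41 reads, no C19MC or pluripotency member had the depth to pass the filter.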
